A study of Homo sapiens with 6 samples.

Results

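PAX3-FOXO1 target genes are genes that the fusion protein of alveolar rhabdomyosarcoma, a childhood cancer with features of skeletal muscle, is known to bind and activate. The 10 genes described here, RASSF4, PIPOX, ABAT, NOS1, TFAP2B, OLIG2, CNR1, KCNN3, DAPK1 and SKP2, were taken from the known targets of the fusion, with its receptor kinase targets left out, and are 10 of 22448 genes measured. Each is read by 1 transcript cluster, the array's unit for a gene, that carries its symbol and no other. They were measured on 6 arrays of RH30, an established fusion-positive rhabdomyosarcoma cell line. The labels of the arrays give DMEM with fetal bovine serum as the medium, whereas the methods of the study give RPMI for this line. All 6 came from cells with the IκBα super-repressor (IκBα-SR), a transgene that blocks NF-κB. The 3 control arrays are called RH30-SR. The other 3, called RH30-SR MyoDΔ, are from clone 29, in which MyoD had been ablated with CRISPR. Because all MyoDΔ arrays came from this 1 clone, features of the clone and effects of MyoD loss cannot be told apart. The labels call the control RH30 SR and name no guide RNA for it, while a legend of the study names the control of the transcriptome comparison as Vector cells, which elsewhere in that legend carry scrambled guide RNAs. Nothing in these sources says that replicates were separate cultures, so that p-values cover the spread between these arrays only.

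PAX3-FOXO1 joins the DNA-binding paired box and homeodomain of PAX3 to the activation domain of FOXO1. It binds mainly at distal enhancers, many of which are also occupied by MyoD and myogenin, and together with MYCN and SOX8 these factors form a circuit that keeps the tumor cells in an arrested muscle program. The comparison of MyoDΔ with RH30-SR cells therefore asks which targets of the fusion differ in level in this MyoDΔ clone while NF-κB is blocked.

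Values are log2 expression after RMA, a method that corrects background and normalizes arrays to a common distribution, and a difference of 1 is 2-fold. Array medians lay between 4.27 and 4.31. RH30-SR replicate 2 correlated least with the other arrays (0.9943 to 0.9948 across clusters with its own group, against 0.9969 between the other two), and no call of the 10 genes changed without it. MYOD1, the edited gene, read 9.09, 9.50 and 9.43 in RH30-SR and 6.95, 7.16 and 6.90 in MyoDΔ arrays. Of 11 markers of the muscle lineage 8 were called lower, MYOD1 itself among them, and 2, MYF5 and PAX3, were called higher. By the same rule, given below, 4.20% of all genes were lower and 2.81% higher. The summed linear level of the 11 markers, MYOD1 included, was 8239 to 8710 in RH30-SR and 2941 to 3000 in MyoDΔ arrays. Markers of other cell types were called in 1 of 5 endothelial (PECAM1, -0.48), 1 of 4 fibroblast (LUM, -1.31), 0 of 4 leukocyte and 0 of 5 epithelial genes, and 0 of 6 housekeeping genes were called. PECAM1 (4.05 in RH30-SR and 3.57 in MyoDΔ arrays) and LUM (3.69 and 2.38) lay below the median of all values, 4.29, in both groups. The part of this shift in muscle markers in the results below was not tested. In bulk RNA, fewer cells of a type and less RNA per cell cannot be told apart.

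The promoters of the targets that fell the most are shown because MyoD binds E-boxes, for which it prefers the letters CAGCTG. Each run spans 250 bases before to 50 bases after a RefSeq transcript start (GRCh38.p14), reads 5′ to 3′ on the strand of the gene, and has CAGCTG in capitals, together with GTCAC or its complement GTGAC, a core of the paired-domain site. RASSF4 is at chr10:44959552-44959851 (plus strand), KCNN3 at chr1:154870232-154870531 (minus strand) and PIPOX at chr17:29042891-29043190 (plus strand).
RASSF4: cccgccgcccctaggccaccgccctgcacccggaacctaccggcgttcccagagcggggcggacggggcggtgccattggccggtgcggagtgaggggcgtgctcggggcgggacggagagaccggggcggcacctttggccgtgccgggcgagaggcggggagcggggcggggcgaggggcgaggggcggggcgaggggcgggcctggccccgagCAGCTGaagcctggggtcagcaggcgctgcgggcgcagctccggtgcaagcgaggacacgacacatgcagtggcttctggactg
KCNN3: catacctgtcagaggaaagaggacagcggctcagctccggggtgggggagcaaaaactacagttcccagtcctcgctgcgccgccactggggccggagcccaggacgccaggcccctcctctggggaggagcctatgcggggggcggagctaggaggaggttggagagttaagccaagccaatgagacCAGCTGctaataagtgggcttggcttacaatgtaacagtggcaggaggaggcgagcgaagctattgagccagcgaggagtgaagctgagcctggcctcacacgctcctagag
PIPOX: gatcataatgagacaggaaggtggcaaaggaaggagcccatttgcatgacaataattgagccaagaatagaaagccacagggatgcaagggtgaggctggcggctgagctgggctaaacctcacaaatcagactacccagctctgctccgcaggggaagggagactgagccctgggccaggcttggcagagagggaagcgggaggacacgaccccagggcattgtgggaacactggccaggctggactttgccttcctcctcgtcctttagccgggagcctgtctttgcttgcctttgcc
The single CAGCTG of RASSF4 begins 34 bases before the start (position -34) and that of the KCNN3 window shown at position -62, while the PIPOX window holds none. KCNN3 has further windows, which are not shown. None of the windows shown holds GTCAC or GTGAC.

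RefSeq windows were found for 9 of the 10 genes, 20 windows in all, some of which overlap. CAGCTG was present in 5 of the 20 windows, against 17.9% of 35116 windows of the same length over all genes, and these 5 belong to 3 genes, RASSF4, KCNN3 and ABAT. All 3 of these genes fell in MyoDΔ cells, but so did PIPOX and SKP2, whose windows lack these letters. KCNN3 had them in each of its 3 windows, and ABAT in 1 of its 4, at position 37. A gene with several windows counts several times, and no share per gene was computed over all genes. The homeodomain core ATTA, searched on both strands, was in 13 of the 20 windows (50.2% of all windows), from 5 genes, and GTCAC in 8 of the 20 (42.5% of all windows), from 4 genes, namely KCNN3, CNR1, NOS1 and ABAT. A match of letters is a description of the window and not a binding site. A window without a match says only that these letters are not in it.

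Among the 10 target genes 5 were lower in MyoDΔ cells, RASSF4, PIPOX, KCNN3, SKP2 and ABAT, none was higher, and 5 were not called. A gene was called at a limma adjusted p below 0.05 with a fold change over 25%. By that rule 7.01% of all genes were called, 4.20% as lower and 2.81% as higher. The 10 genes were chosen with earlier results of these data known, so setting them beside all genes is a description and not a test. The median log2 difference of the 10 genes was -0.38, against -0.01 for all genes, and 7 of the 10 differences were negative. Their mean log2 value on an array was 6.21 to 6.26 in RH30-SR and 5.69 to 5.72 in MyoDΔ arrays. All arrays of the MyoDΔ group lay below all RH30-SR arrays for 7 of the 10 genes, as they did for 18.4% of all genes, and above them for 1, as for 15.8% of all genes.

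**Figure D1:**
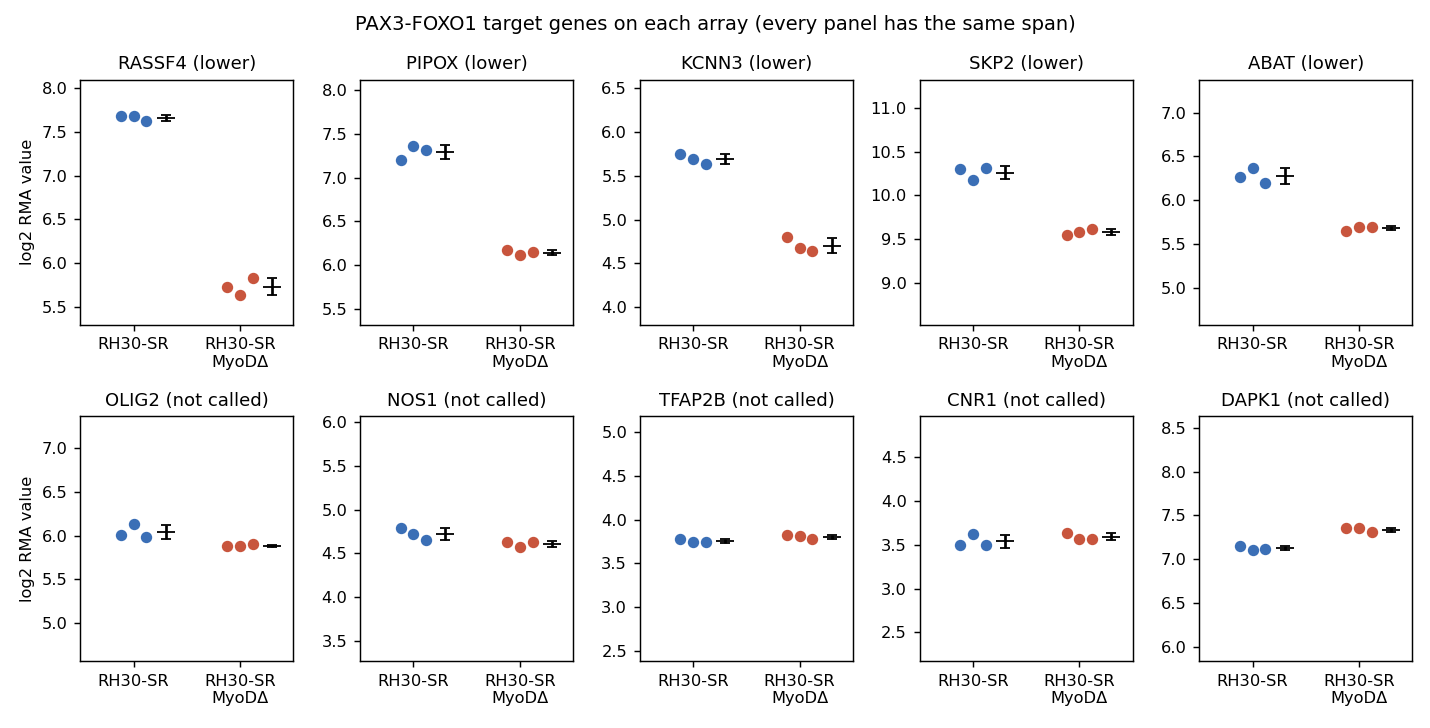
Log2 RMA values (y axis) of the 10 target genes in RH30-SR (blue) and RH30-SR MyoDΔ (red) arrays; points are arrays, and bars show mean ± SD (n = 3). Every panel has the same span, so that the drop of RASSF4 from 7.66 to 5.73 can be set against the near-level CNR1 (3.54 and 3.59).

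RASSF4 had the largest change of the 10 genes. It encodes a Ras-association domain protein that, in fusion-positive rhabdomyosarcoma, is known to restrain the Hippo kinase MST1 and so to let cells escape senescence. Its values were 7.68, 7.68 and 7.62 in RH30-SR and 5.73, 5.63 and 5.83 in MyoDΔ arrays, so that the groups were 1.79 apart at their nearest values. The log2 difference of -1.93 ± 0.06 (SE over 3 and 3 arrays, adjusted p = 1.57e-05 by limma) made it 3.81-fold lower, and 25 of the 22448 genes had a larger fall. Neither the MST kinases nor the other RASSF genes were called lower with it. STK4, the MST1 gene, had a difference of 0.37 ± 0.07 (adjusted p = 0.0294), a call that was lost without any 1 of the arrays (adjusted p = 0.0515 to 0.112), and the other 11 measured genes of this group, among them RASSF1, RASSF2 and STK3, were not called. RASSF3 (-0.32 ± 0.07, adjusted p = 0.0539) came closest among those with a negative difference, and its MyoDΔ arrays all lay below the controls. RASSF8 (0.25 ± 0.05, adjusted p = 0.0262) missed the call by the fold required. STK3 (3.87 in RH30-SR and 3.94 in MyoDΔ arrays), RASSF6 (2.44 and 2.42) and RASSF9 (3.74 and 4.08) were dim. They lay below the median of all values (4.29) in both groups, a level at which a change could be missed. Over the 6 arrays the pattern of RASSF4 was most like that of TNNI1, the slow skeletal troponin I gene (Pearson r = 0.9999 over 6 arrays), followed by MAN1C1, FUT3, C6orf15 and MIR500B (0.9990 to 0.9993). These r values share the same 2 groups of arrays, and 222 of 15778 genes compared had an r over 0.99.

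Metabolic enzymes were the next group. PIPOX encodes peroxisomal sarcosine oxidase, which breaks down sarcosine and pipecolic acid. It read 7.20, 7.36 and 7.32 in RH30-SR and 6.17, 6.11 and 6.15 in MyoDΔ arrays, with no overlap. The difference of -1.15 ± 0.06 (SE, adjusted p = 1.00e-04) corresponds to a 2.22-fold lower level. The other measured sarcosine genes, GNMT (-0.17, adjusted p = 0.236) and DMGDH (0.04, adjusted p = 0.775), were not called. ABAT, the mitochondrial transaminase that breaks down the neurotransmitter GABA, read 6.26, 6.37 and 6.19 in RH30-SR against 5.65, 5.69 and 5.69 in MyoDΔ arrays. Here too the groups were apart, but by 0.50, and the fall of 0.60 ± 0.06 (SE, adjusted p = 0.00211) on the log2 scale was 1.51-fold. None of the 3 measured genes for other steps of GABA metabolism, GAD1, GAD2 and ALDH5A1, was called (-0.08 to 0.21). NOS1, the neuronal nitric oxide synthase, is anchored at the membrane of skeletal muscle fibers as well as made in neurons. Its values of 4.79, 4.72 and 4.65 in RH30-SR lay just above those of MyoDΔ arrays (4.63, 4.57 and 4.63), with a gap of 0.02. The difference did not pass the test (-0.11 ± 0.06, 95% interval -0.24 to 0.02, adjusted p = 0.365), and NOS2 read -0.01 ± 0.06.

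Of the membrane proteins, KCNN3 was called lower and CNR1 was not called. KCNN3 encodes a potassium channel opened by calcium, which shapes excitability in nerve and muscle. It read 5.75, 5.69 and 5.64 in RH30-SR and 4.80, 4.67 and 4.64 in MyoDΔ arrays. The groups did not overlap, and the difference was -0.99 ± 0.06 (SE, adjusted p = 2.51e-04), or 1.99-fold. The related channel genes KCNN1 (-0.05) and KCNN4 (0.14) were not called. CNR1, the cannabinoid receptor of neurons and a marker of fusion-positive tumors, read 3.50, 3.63 and 3.50 in RH30-SR and 3.64, 3.57 and 3.57 in MyoDΔ arrays. These values overlapped and lay under the median of all values (4.29) in both groups, a level at which a change could be missed. The 95% interval of its difference ran from -0.09 to 0.19 (adjusted p = 0.731). The 6 other measured genes of the endocannabinoid system were not called, from -0.21 for MGLL to 0.30 for DAGLB. DAGLB (adjusted p = 0.0250, 1.23-fold) missed the call by the fold required.

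The 2 transcription factors of the set, both known from neural tissue, were not called. TFAP2B, an AP-2 factor of the neural crest that is used as a diagnostic marker of fusion-positive tumors, read 3.78, 3.75 and 3.74 in RH30-SR and 3.82, 3.81 and 3.78 in MyoDΔ arrays. The groups met at 3.78, below the median of all values, and the difference was 0.05 (95% interval -0.06 to 0.16, adjusted p = 0.680). OLIG2, which specifies oligodendrocytes and motor neurons and also marks fusion-positive tumors, read 6.01, 6.13 and 5.98 in RH30-SR. Its MyoDΔ values were 5.88, 5.88 and 5.90, all lower but by a gap of 0.08, and the difference of -0.15 ± 0.06 (SE, 95% interval -0.29 to -0.02) did not pass after adjustment (adjusted p = 0.202). None of 6 measured AP-2 family and inhibitor genes, neither of the other OLIG genes, and none of 10 measured markers of neurons and glia was called. The summed linear level of those neural markers was 218 to 220 in RH30-SR and 217 to 218 in MyoDΔ arrays. Of the 10 markers 5 lay below the median of all values in both groups, where a change could be missed.

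SKP2 and DAPK1, which act in the cell cycle and in cell death, had differences of opposite sign. SKP2 is the subunit of an SCF ubiquitin ligase that picks CDK inhibitors such as p27 for degradation. It read 10.30, 10.17 and 10.31 in RH30-SR and 9.55, 9.58 and 9.62 in MyoDΔ arrays. The groups were 0.55 apart, with a difference of -0.68 ± 0.06 (SE, adjusted p = 9.66e-04), or 1.60-fold lower. The ligase subunits SKP1 (-0.21 ± 0.07, adjusted p = 0.149) and CUL1 (0.01 ± 0.05) and the cofactor CKS1B (0.01 ± 0.05) were not called. Of the CDK inhibitors, CDKN1A (p21) fell by 0.42 ± 0.05 on the log2 scale (adjusted p = 0.00512), while CDKN1B (p27) read 0.17 ± 0.05 (adjusted p = 0.0903) and CDKN1C -0.09 ± 0.06 (adjusted p = 0.479). DAPK1, a calmodulin-regulated kinase that promotes cell death, was the 1 target gene whose MyoDΔ arrays all lay above the controls. Its values were 7.15, 7.10 and 7.12 in RH30-SR and 7.35, 7.35 and 7.31 in MyoDΔ arrays. The difference of 0.21 ± 0.05 (SE, 95% interval 0.10 to 0.33) had an adjusted p of 0.0466 but was 1.16-fold, under the fold required. That p ranged from 0.0137 to 0.158 over the alternative settings. DAPK2 showed no difference that passed (adjusted p = 1.00).

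**Figure D2:**
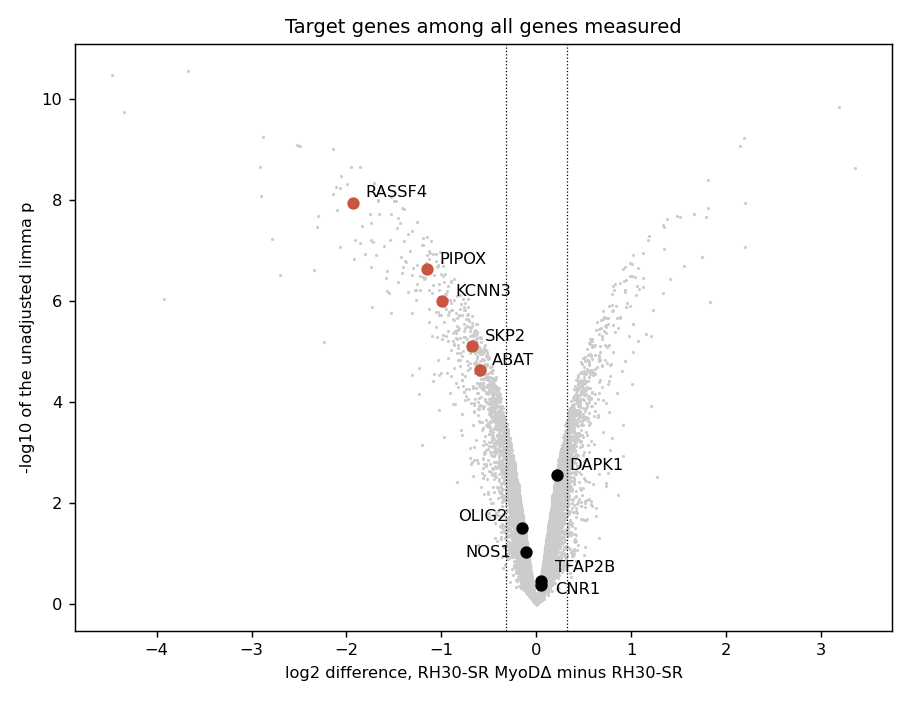
Log2 difference (x axis, RH30-SR MyoDΔ minus RH30-SR) against -log10 of the unadjusted limma p (y axis) for 22448 genes (grey), with the 5 called target genes in red and the 5 others in black; dotted lines mark a 25% fold change. RASSF4 at -1.93 lies far out on the lower side, and DAPK1 at 0.21 inside the dotted line.

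By 95% intervals the called genes fell into steps. That of RASSF4 (-2.08 to -1.78) did not reach those of PIPOX (-1.29 to -1.01) and KCNN3 (-1.14 to -0.84), which overlapped each other. SKP2 (-0.82 to -0.54) and ABAT (-0.74 to -0.45) overlapped as well. Differences between genes were not tested. Replicates of a group were close for all 10 genes, with SDs of 0.01 to 0.10.

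The fusion gene's own partners did not fall. PAX3 read 6.60, 6.63 and 6.64 in RH30-SR and 7.21, 7.20 and 7.17 in MyoDΔ arrays, a rise of 0.57 ± 0.05 (SE, adjusted p = 7.83e-04). FOXO1 read 6.31, 6.33 and 6.38 against 6.62, 6.65 and 6.56, a difference of 0.27 ± 0.05 (adjusted p = 0.0276) that was under the fold required at 1.21-fold. Which share of either signal comes from the fusion transcript was not tested. The transcription factors that share enhancers with the fusion were lower. MYOG, which encodes myogenin, had a log2 difference of -2.70 ± 0.14 (adjusted p = 1.17e-04), and SOX8 one of -1.24 ± 0.15 (adjusted p = 0.00435). MYCN (-0.35 ± 0.07, adjusted p = 0.0285) kept its call without RH30-SR replicate 1 but lost it when any of the 5 other arrays was left out (-0.28 without RH30-SR replicate 2, and an adjusted p of 0.0687 to 0.109 without the others). Of the 4 measured cofactors of the fusion none was called. CHD4 (0.22 ± 0.05, adjusted p = 0.0478) and KDM4B (-0.24 ± 0.05, adjusted p = 0.0280) were under the fold required.

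Other targets of the fusion moved in both directions, as the plot of fusion genes shows. Among 4 receptor kinases FGFR4 fell by 1.02 ± 0.06 on the log2 scale (adjusted p = 1.83e-04), MET rose by 0.46 ± 0.05 (adjusted p = 0.00300), and ALK (-0.04) and IGF1R (-0.01) were not called. A further 12 targets held 5 lower genes, 1 higher gene and 6 that did not pass. Besides MYCN and SOX8, the lower genes were CXCR4, a chemokine receptor (-0.93 ± 0.09, adjusted p = 0.00141), ASS1, the argininosuccinate synthase of arginine supply (-0.65 ± 0.06, adjusted p = 0.00168), and BCL2L1, which encodes the survival protein BCL-XL (-0.43 ± 0.05, adjusted p = 0.00283). GREM1, a secreted BMP antagonist, was the 1 that rose (0.56 ± 0.06, adjusted p = 0.00225). Counted once each, the 24 measured circuit factors, cofactors, receptor kinases and further targets held 8 lower and 3 higher genes, beside the 7.01% of all genes called. The 8 lower genes include MYOD1, the edited gene itself, and MYCN, whose call was lost without most of the single arrays. Of the 41 measured family members and partners of the 10 target genes 2 were called, STK4 and CDKN1A, a share not above the 7.01% of all genes. The median log2 difference of the 41 was 0.01.

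**Figure D3:**
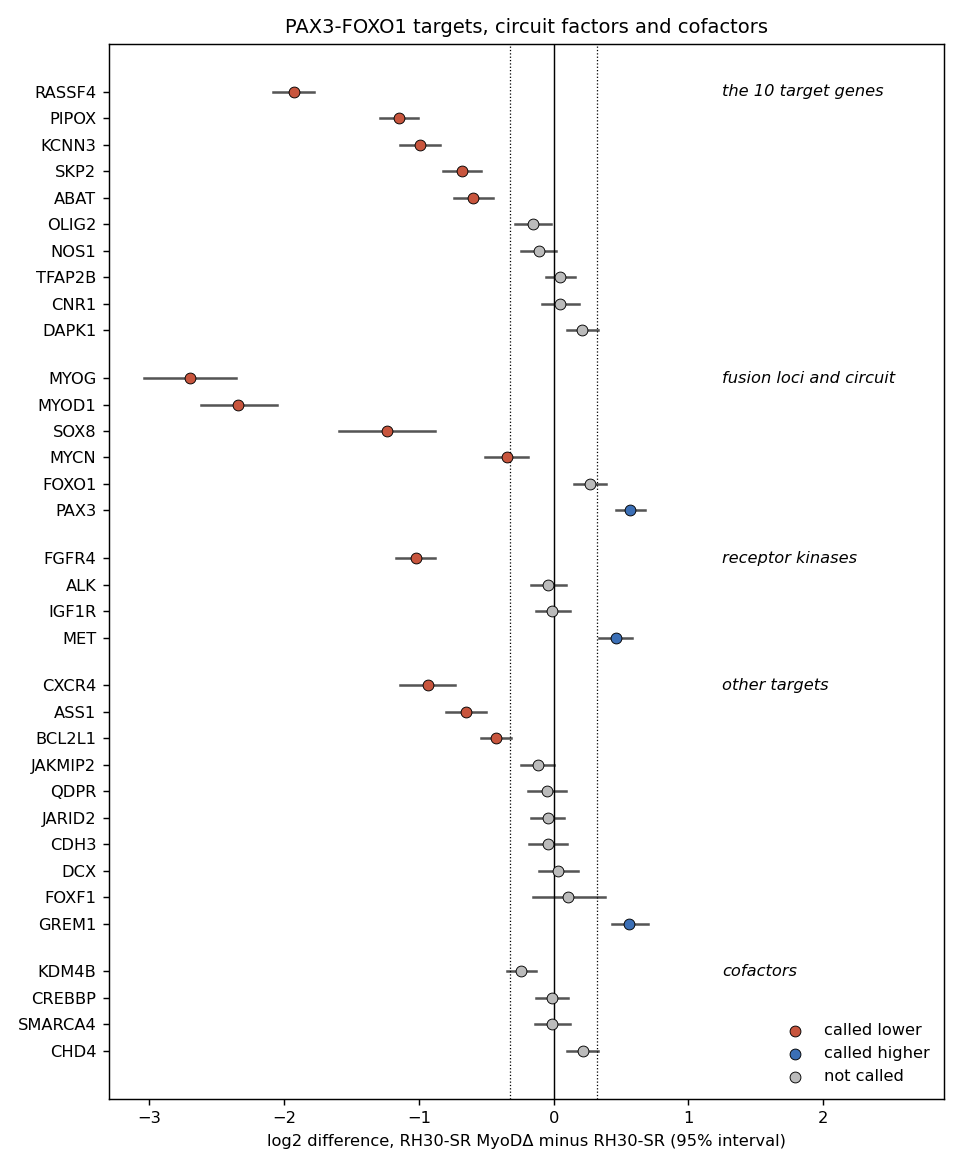
Log2 difference (x axis, RH30-SR MyoDΔ minus RH30-SR) with its 95% interval for the 10 target genes and for other genes of the fusion's network, red where called lower, blue where called higher and grey where not called; dotted lines mark a 25% fold change. Of the fusion partners PAX3 lies at 0.57 and FOXO1 at 0.27, while MYOG (-2.70) and RASSF4 (-1.93) lie far to the left.

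Most chromosomal neighbours of the 10 genes were not called. The 5 measured genes on each side of every target, in RefSeq order, were looked up after the targets' values had been seen. Of these 100 neighbours 8 were lower, beside 4.20% of all genes, and 2 were higher, beside 2.81% of all genes. Whether these shares differ was not tested. Some neighbours lay below the median of all values (4.29) in both groups, where a change could be missed. Examples beside TFAP2B were DEFB110 (2.07 in RH30-SR and 1.99 in MyoDΔ arrays) and PKHD1 (2.88 and 2.84). Beside SKP2 they were CAPSL (2.33 and 2.29) and MIR580 (2.01 and 1.83). Around RASSF4 the median was -0.06, with no gene called lower and 1 called higher, ZNF22-AS1 (0.45 ± 0.06). ZNF22, next to that gene, had a difference of -0.31 ± 0.06 (adjusted p = 0.0226) and missed the call by the fold required. None of the 10 neighbours of PIPOX was called (median -0.01). Beside ABAT, RBFOX1, a splicing factor of nerve and muscle (-0.96 ± 0.06), and CARHSP1 (-0.76 ± 0.09) were lower. Beside KCNN3, PBXIP1 was lower (-0.46 ± 0.09), a call that did not hold when RH30-SR replicate 1 or 2, or RH30-SR MyoDΔ replicate 2 or 3, was left out (adjusted p = 0.0598 to 0.102). UGT3A1 was the lower neighbour of SKP2 (-0.64 ± 0.05). DAPK1 was not called, but GAS1, a gene linked to growth arrest (-0.65 ± 0.08), and LINC02872 (-1.02 ± 0.14) beside it were lower, while SYNJ1 beside OLIG2 was higher (0.39 ± 0.05). TFAP2B itself was not called, yet close to it lie the genes of the muscle microRNAs miR-206 and miR-133b. MIR133B was lower (-0.78 ± 0.11, adjusted p = 0.00780), from 4.88 to 4.09. MIR206 lay below the median of all values in both groups (2.68 and 2.11), and its call (-0.57 ± 0.12, adjusted p = 0.0431) held without RH30-SR replicate 2 but not when any of the 5 other arrays was left out (adjusted p = 0.0704 to 0.143).

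**Figure D4:**
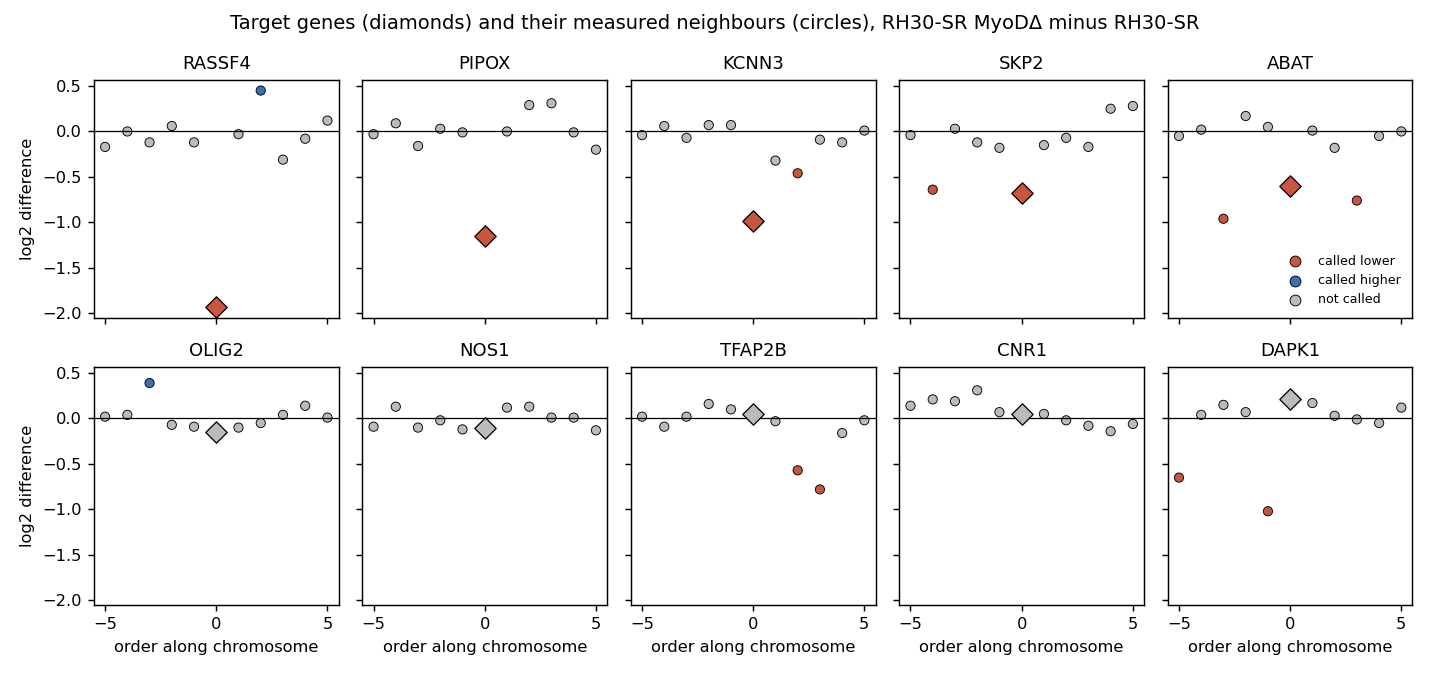
Log2 difference (y axis, RH30-SR MyoDΔ minus RH30-SR) of each target gene (diamond) and of the 5 measured genes on either side (circles), in their order along the chromosome (x axis); red is lower, blue is higher and grey is not called. RASSF4 (-1.93) and PIPOX (-1.15) have no neighbour called lower, whereas TFAP2B (0.05) lies near 2 lower microRNA genes.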

How the data were processed

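Affymetrix Human Transcriptome arrays, with 1 colour, were run on 3 RH30-SR and 3 RH30-SR MyoDΔ samples. The authors deposited log2 values, 1 per transcript cluster and array, after RMA. For this step their methods give the oligo package in R, whereas the submitters' processing notes list Affymetrix Expression Console beside RMA. For the array values, software versions and the genome build are not given in the sources used here. Quantile normalization in RMA would hide a change shared by most genes. The table held 65535 clusters with 0 missing values. The methods of the study state a larger number of transcript clusters for this array, so that some may be absent from these values. A second table was not used, since its column names did not match single samples. The files give no background measure or scan date, and their number of arrays limits precision.

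Clusters were named from GEO's annotation of the platform, some of which may be outdated (22758 clusters with 1 symbol and 1389 with several, which were left out), and a gene was read by its cluster with the highest mean. Differences (RH30-SR MyoDΔ minus RH30-SR) were fitted with limma 3.58.1 in R 4.3.3 (lmFit, eBayes, group as the only term) over all clusters, two-sided, with Benjamini-Hochberg adjustment and the thresholds of the study's methods. Those methods also fitted an RH30 group, which was not analysed here. All adjusted p values are from the present fit. SE and intervals are moderated. The procedure was tested on simulated data. Promoter sequences and gene order are from RefSeq. The 10 genes and the lists were chosen with earlier results of these data known. All 10 were named with every array's value, with MYOD1, every called gene of the circuit, cofactor, receptor kinase, further target and partner lists, those not called that a count needed, and the 5 genes with the highest r to RASSF4 among those above the median level. Neighbours were added after seeing the data. The alternatives were other normalizations, a filter on dim clusters, a replicate block, array weights, another variance model and leaving out each array.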

Additional observations from a re-analysis of the deposited data

How the results depend on the processing

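The calls of the 10 target genes, 5 lower and 0 higher, were the same genes under all 13 alternatives (quantile normalization again, median centring, cyclic loess, a filter on dim clusters, the replicate number as a block, arrayWeights, eBayes with trend and robust, and leaving out each array), and no difference changed sign. TFAP2B and CNR1 have no value under the filter, which removes them. The log2 difference ranged from -1.98 to -1.88 for RASSF4, -1.20 to -1.12 for PIPOX, -1.04 to -0.96 for KCNN3, -0.72 to -0.65 for SKP2 and -0.64 to -0.55 for ABAT, with an adjusted p of at most 0.0147, and OLIG2 reached an adjusted p of 0.0926 at the lowest. Replicate numbers did not pair the arrays. The deviations of same-numbered arrays from their group means correlated at -0.049, -0.037 and 0.034. No array correlated best with its own number. With the replicate block, 726 genes were lower and 439 higher, against 942 and 631 without it, and MYCN, STK4 and MIR206 lost their calls (adjusted p = 0.0906, 0.0765 and 0.0572). The alternatives for genes other than the 10 targets were added after seeing the data. MYCN also fell below the fold threshold after quantile normalization (-0.32) and with arrayWeights (-0.31), and MIR206 lost its call after quantile normalization and cyclic loess (adjusted p = 0.0683 and 0.0674). When each array was left out in turn, the number of higher genes over the whole table was 409 (without RH30-SR MyoDΔ replicate 2) to 526. The planned repeat on the second table and on further clusters of each gene was not run, since that table was not mapped to samples and no further cluster carried a target symbol. Without a background measure, levels near the bottom of the range, as for CNR1 and TFAP2B, limit what can be seen.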
